A study of Mus musculus with 12 samples.

Results

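The translation initiation and elongation factors of skeletal muscle were taken as every transcript cluster whose single annotated symbol begins with Eif or Eef followed by a digit, except Eif4ebp1 and Eif2ak2. This rule used names only and no measured value. It gave 69 transcript clusters of 59 genes, out of 28944 transcript clusters on the array and 19938 genes with a transcript cluster of 1 symbol. A transcript cluster is the set of probes that the array summarizes into 1 value. Of the symbols, 51 had 1 transcript cluster and 8 had several. A further 11 transcript clusters with several symbols, of which at least 1 belongs to the family, were not named here. Of these, 1 was called higher and 6 lower in RT by the test described below, against 11.9% and 13% of all transcript clusters.

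Gastrocnemius muscle, the large calf muscle, was measured on 12 Affymetrix Mouse Gene 1.0 ST arrays, 1 per mouse. The 6 RT mice had received feces from exercise-trained donors, and the 6 RS mice had received feces from sedentary donors. All 12 were male germ-free mice of the strain Tsl;ICR[GF], 11 weeks old, fed a high-fat diet and gavaged for 1 week before the muscle was taken. The methods state that recipients were caged together and that the fecal samples they received were identical. The cage, the fecal sample and the training of the donors therefore cannot be told apart, and the p-values below measure the spread between mice that may not be independent.

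Initiation factors bring the small ribosomal subunit, the initiator tRNA and the mRNA together. eIF2 delivers the tRNA, eIF3 is a scaffold on the small subunit, and the eIF4 proteins recognize the cap and unwind the mRNA. Elongation factors then work through each codon: eEF1A delivers aminoacyl-tRNAs, and eEF2 moves the ribosome along. Mature skeletal muscle fibers are known for the replacement of eEF1A1 by its close relative eEF1A2, which most other cell types lack.

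The DNA around the annotated starts of both eEF1A genes is shown because their signals moved unequally, as described below. Both stretches run from 70 bases before to 30 bases after the start, 5′ to 3′ on the coding strand, and come from RefSeq, build GRCm38.p6. The capitals mark TATAA, which in Eef1a1 stands at positions 26 to 30 downstream of the annotated start.
Eef1a1, minus strand of chr9:78481695-78481794: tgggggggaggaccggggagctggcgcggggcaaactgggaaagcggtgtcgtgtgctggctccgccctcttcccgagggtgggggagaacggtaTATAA
Eef1a2, minus strand of chr2:181156986-181157085: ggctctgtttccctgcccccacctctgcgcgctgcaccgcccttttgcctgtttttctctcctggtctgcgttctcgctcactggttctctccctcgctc
Pyrimidines made up 37% of the Eef1a1 stretch and 78% of the Eef1a2 stretch. Both stretches are set by the annotated starts, whose accuracy was not tested, so they may not be aligned on the starts used in muscle.

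The X-linked and Y-linked genes for the γ subunit of eIF2 are shown for the same reason. In both, the capitals mark a run of pyrimidines near the annotated start, at positions 1 to 11 in Eif2s3x and 2 to 13 in Eif2s3y.
Eif2s3x, minus strand of chrX:94212627-94212671: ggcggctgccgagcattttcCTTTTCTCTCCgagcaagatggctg
Eif2s3y, plus strand of chrY:1010575-1010619: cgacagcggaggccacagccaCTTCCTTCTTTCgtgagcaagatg
A C at the first base followed by pyrimidines is the letter pattern of a terminal oligopyrimidine (TOP) tract, the mark of many mRNAs for ribosomal proteins and translation factors. Searched at the annotated start itself, that pattern was found in 2 of the 62 windows of the members, those of Eif2s3x and Eif3f. This is 3.23%, against 2.51% of all 32851 windows. A run that begins even 1 base away was missed, as in Eif2s3y, and the accuracy of the annotated starts was not tested. The shares therefore do not tell how many members carry a TOP tract.

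Promoter windows of 250 bases before to 50 after the start were matched to 47 of the 59 genes, and some genes had several, partly overlapping windows. The letters CCGGAAG, read on either strand, were the most frequent of the motifs searched. GGAA is the core that transcription factors of the ETS family recognize. CCGGAAG stood in 19 of the 62 windows of the members, or 30.6%, against 8.86% of all windows and 11.6% of the 21262 windows of protein-coding genes. By gene, 16 of the 47 matched members held it, or 34%, against 12.9% of 17491 protein-coding genes. The members that held it were Eef1b2, Eif1ad, Eif1ax, Eif1b, Eif2ak1, Eif2b2, Eif2b4, Eif3c, Eif3d, Eif3l, Eif3m, Eif4e2, Eif4ebp2, Eif4enif1, Eif5a and Eif5a2. Of these holders, Eif2ak1, Eif3c, Eif3d and Eif5a2 were called higher in RT, and all the others did not pass. For comparison, 13.9% of all genes and 14.5% of the transcript clusters of the members were called higher. The other members called higher, Eef1a1, Eef2kmt, Eif2s3x, Eif4a1, Eif4e3 and Eif4h, were not among the holders. Whether the motif goes with the change was not tested. Stretches of 35 bases are shown for 3 of the holders called higher, with the capitals on the motif or its reverse complement, CTTCCGG.
Eif3c, minus strand of chr7:126566414-126566448, capitals at −68 to −62: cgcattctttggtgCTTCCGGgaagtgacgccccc
Eif3d, minus strand of chr15:77970874-77970908, capitals at −70 to −64: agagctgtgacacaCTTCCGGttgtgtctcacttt
Eif5a2, plus strand of chr3:28781099-28781133, capitals at −164 to −158: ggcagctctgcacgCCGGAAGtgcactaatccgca
TATAA on either strand was in 11.3% of the windows of the members, Eef1a1 among them, against 24.9% of all windows. CAGCTG, a form of the E-box that myogenic factors can bind, was in 8.06% of the windows of the members, including that of Eef1a2, against 16.3% of all windows. These are matches of letters in a window, and the motifs were chosen after the sequences had been seen.

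All values below are log2 signals, on which a difference of 1 is a doubling, and changes are RT minus RS. Calls required both p under 0.05 before adjustment and p under 0.1 after Benjamini-Hochberg adjustment over all 28944 transcript clusters in the limma fit. Array medians were 4.40 to 4.63. RS-4 and RS-6 stood apart: the SD of their signals was 1.97 and 1.99, against 2.06 to 2.15 on the other 10 arrays, and on the first principal component, with 39.6% of the variance, they lay at 43 and 43.4, against −30.8 to −9.55 for RT and −4.74 to 21.2 for the other RS mice. The muscle label held, since the mean of 12 fiber markers was 12.20 to 12.29 in RT and 12.08 to 12.30 in RS, and 0 of the 12 were called.

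Of the 69 transcript clusters, 10 were called higher in RT, 4 were called lower and 55 did not pass. The share called higher was 14.5%, against 11.9% of all transcript clusters, and the share called lower was 5.80%, against 13%. Both shares leave out the 11 family transcript clusters with several symbols, of which 1 was called higher and 6 lower. The low share of falls is therefore shown only for transcript clusters with 1 symbol. The factors hybridized strongly, with mean signals of 3.59 to 11.0 and a median of 7.00, against a median of 4.49 over all, and 65 of the 69 lay above the median signal of the array. Among all transcript clusters above that median, 20.6% were called higher and 10.7% lower. The change was positive in 57 of 69, or 82.6%, against 47.7% of all and 63.6% of the brighter ones. The median change was 0.13, against −0.01 over all transcript clusters. With RS-4 and RS-6 left out, 3 factors were called higher and 0 lower, against 5.7% and 6.19% of all transcript clusters, and the median change was 0.06.

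**Figure D1:**
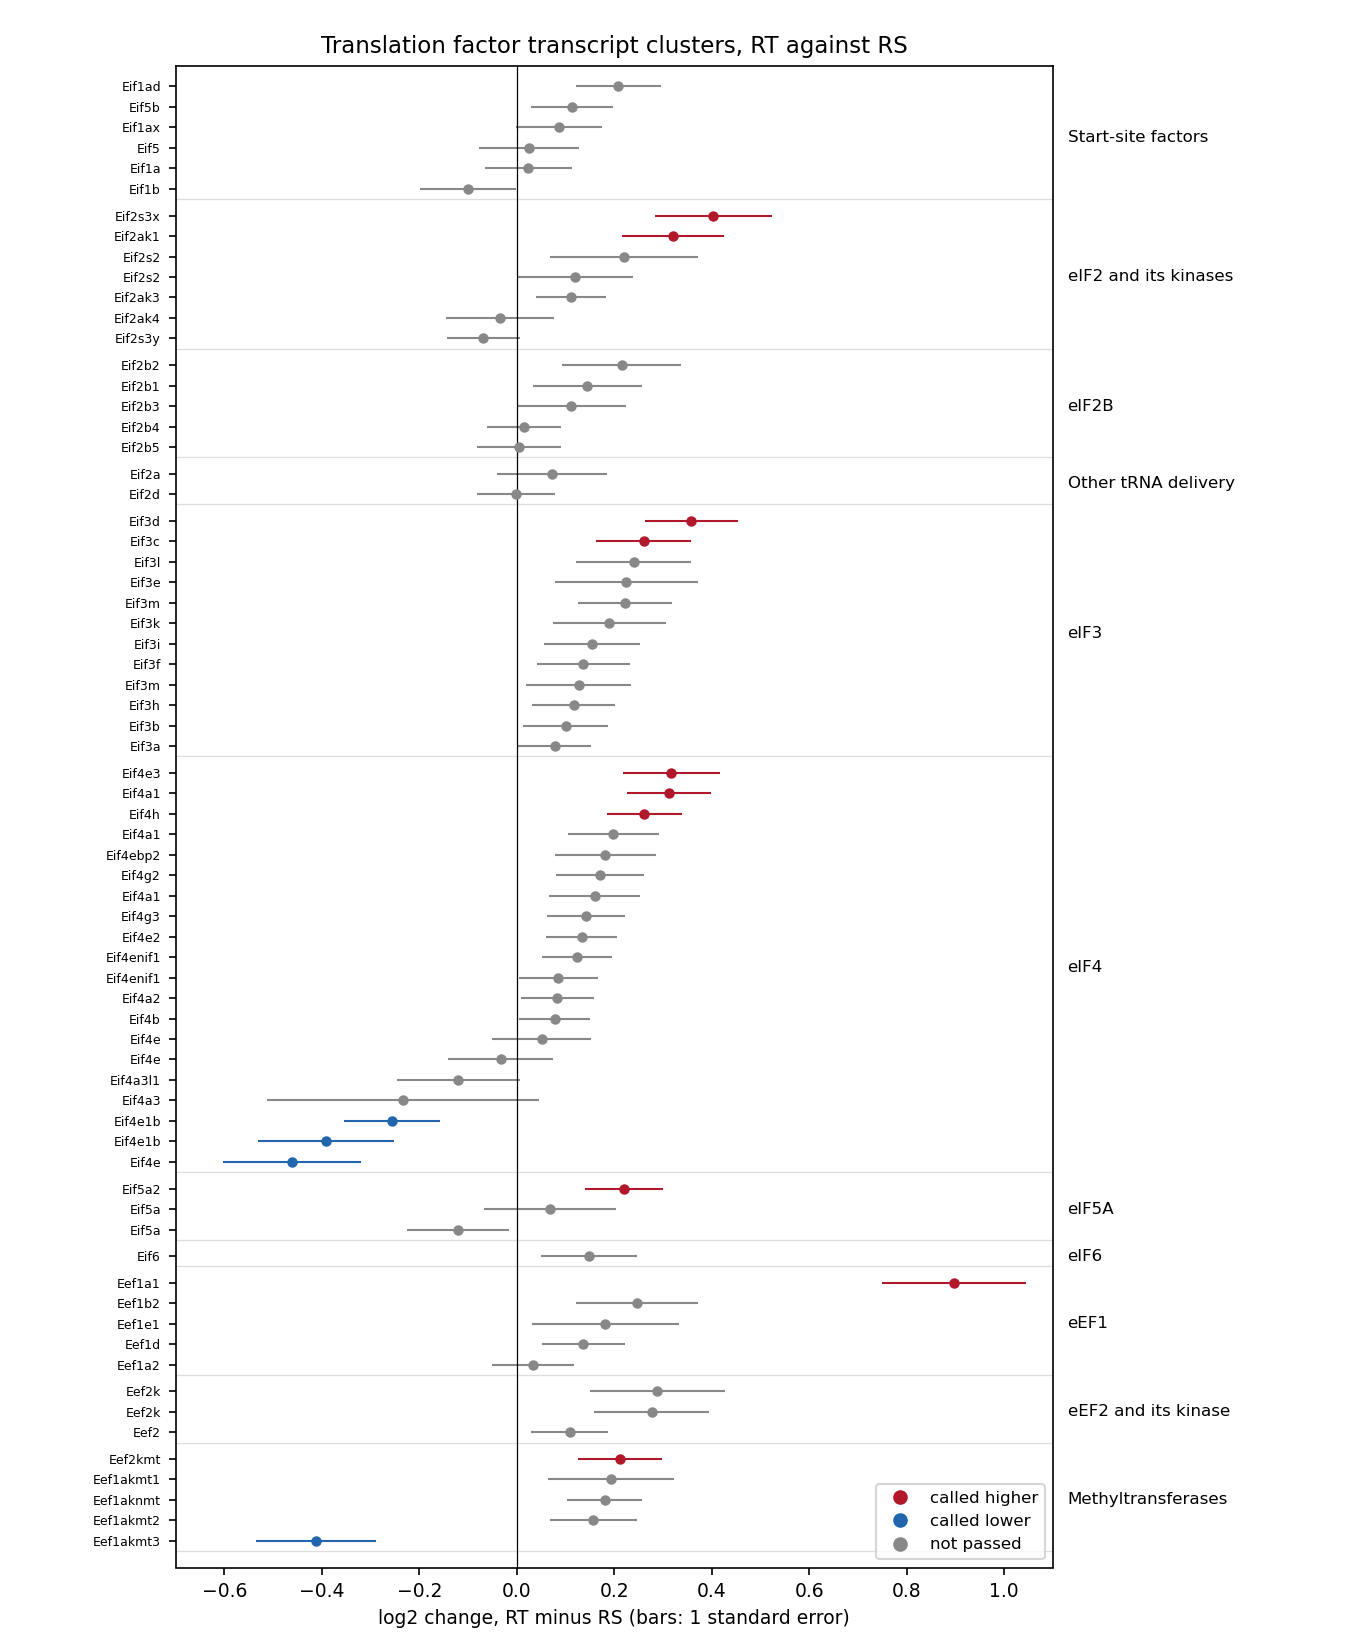
Log2 change (RT minus RS, x axis) of the 69 transcript clusters, grouped by role, with bars of 1 standard error (6 mice per group). Red points were called higher in RT, blue points lower and gray points did not pass; Eef1a1, at 0.90, lies furthest to the right.

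Eef1a1 was the factor with the largest change. Its signal had a lowest, median and highest value of 10.84, 11.12 and 11.19 in RT, against 9.44, 10.27 and 10.51 in RS. All 6 RT mice lay above all 6 RS mice, and the lowest RS value was that of RS-6. The change was 0.90 ± 0.15 (SE), or 1.86-fold (adjusted p = 0.00194; exact permutation p = 0.00216, the smallest that 924 splits allow), which placed it 66th among the rises of 28944 transcript clusters. It passed under each of the 23 alternatives tried, with changes of 0.60 to 0.97 and adjusted p of 0.000892 to 0.02. Eef1a1 has many processed copies in mammalian genomes, and hybridization of their transcripts to its probes was not tested.

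Eef1a2, the form of muscle fibers and neurons, did not pass. Its signal was 11.02, 11.04 and 11.10 in RT (lowest, median and highest), against 10.76, 11.03 and 11.21 in RS, and the RT values lay within the RS range. The change was 0.03 ± 0.08 (SE; adjusted p = 0.812; exact permutation p = 0.673).

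The unequal change of both eEF1A genes was compared within each array as Eef1a2 minus Eef1a1. The zero of such a difference has no meaning between different probes, but its change between groups does. It was −0.15, −0.075 and 0.19 in RT (lowest, median and highest), against 0.51, 0.83 and 1.32 in RS. The groups did not overlap, and the difference between them was −0.86 (exact permutation p = 0.00216; adjusted over 3 pairs, 0.00648). This pair and Eif4a2 minus Eif4a1 were planned, but with earlier results of these data known. As Eef1a2 changed by only 0.03, the difference mostly repeats the change of Eef1a1. The pair passed under all 16 alternatives, with values of −0.93 to −0.72.

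Several lists of markers of cells other than muscle fibers moved with Eef1a1. Of the fibroblast and matrix markers, 9 of 9 measured were called higher (median change 0.78), as were 8 of 8 macrophage markers (0.83). So were 6 of 7 endothelial markers (0.54) and 4 of 6 adipocyte markers (0.69), against 0 of 12 fiber markers (0.06). Of all genes, 13.9% were called higher and 10.7% lower, with a median change of 0.0083. The mean of the matrix markers was 8.75 to 9.17 in RT and 7.52 to 8.76 in RS, that of the macrophage markers was 5.78 to 6.22 in RT and 4.98 to 5.54 in RS, and that of the endothelial markers was 6.75 to 7.10 in RT and 6.12 to 6.64 in RS. The adipocyte mean was 5.10 to 6.32 in RT and 4.70 to 5.08 in RS. Some of these markers were dim, down to a mean signal of 3.38 in Lep. The 4 measured Schwann cell markers went both ways, with 1 called higher, Pmp22 at 1.15, and 1 called lower, Sox10 at −0.38 (median change of the list 0.0067; list mean 5.64 to 6.53 in RT and 5.36 to 6.21 in RS). RS-3 was the highest RS mouse in Eef1a1 and in the matrix, macrophage and endothelial means, and RS-6 was the lowest. RT-5 was the lowest RT mouse in Eef1a1 and these 3 means. The low ranks were not particular to these lists. RS-6 and RT-5 were also the lowest of their groups in the mean of all 69 factors (6.66 and 6.92), where RS-1 was the highest RS mouse. RS-6 was the lowest RS mouse in the fiber mean too (12.08), where RT-6 was the lowest RT mouse. In the adipocyte mean, RS-6 was instead the highest RS mouse and RT-2 the lowest RT mouse. The part of these cells in the Eef1a1 result was not tested, and in whole muscle a different number of cells of a type cannot be told apart from a different amount of RNA per cell.

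**Figure D2:**
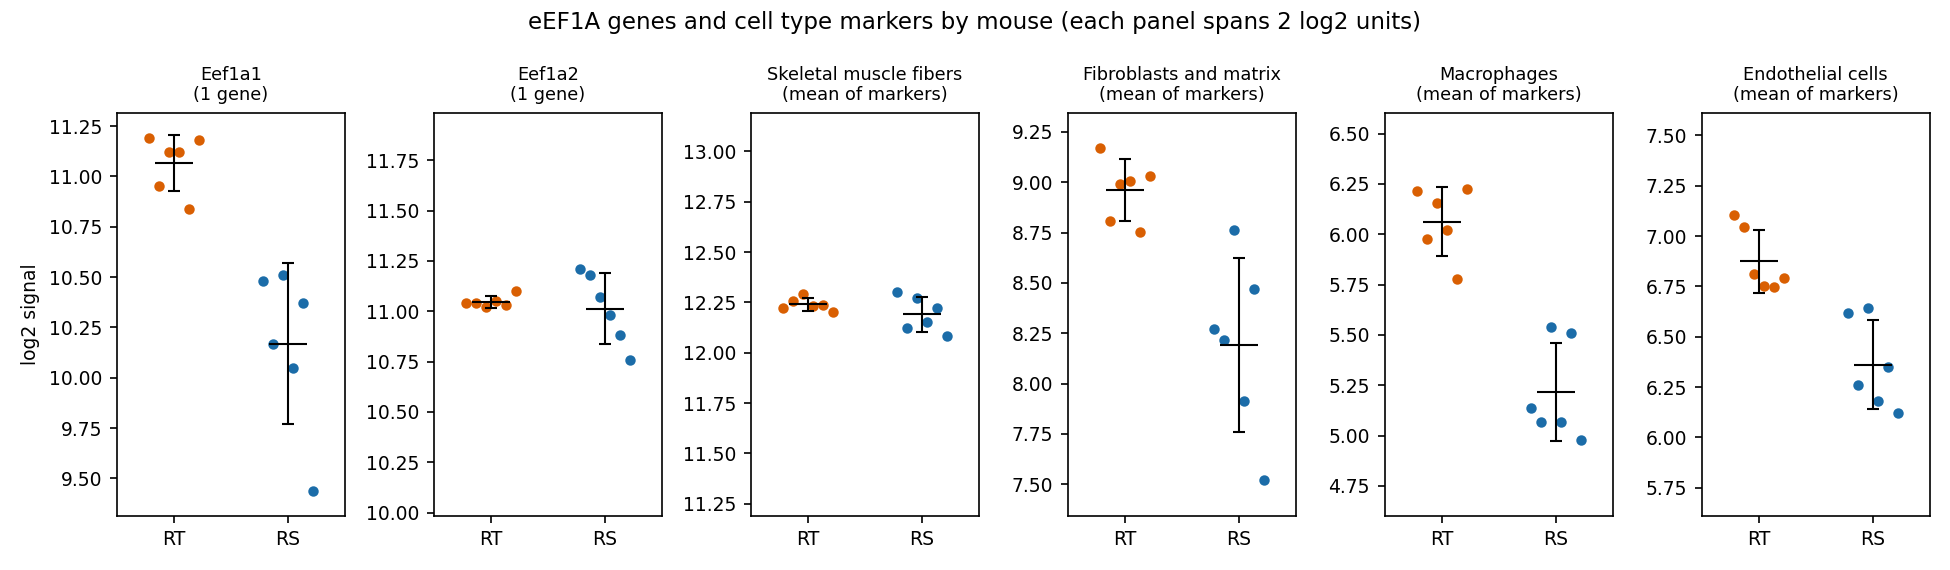
Log2 signal per mouse (points; orange RT on the left, blue RS on the right) of Eef1a1, Eef1a2 and the means of 4 marker lists, with the group mean and SD (bars, 6 mice per group). Eef1a1 and the macrophage and endothelial means were higher in every RT mouse than in any RS mouse, while Eef1a2 and the fiber mean overlapped.

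The other genes grouped here under eEF1 did not pass. Eef1g, whose name fits the rule, had no transcript cluster with 1 symbol and is not covered. Eef1b2 and Eef1d encode parts of the complex that reloads eEF1A with GTP, and their changes were 0.25 (adjusted p = 0.18) and 0.14 (adjusted p = 0.274). Eef1e1, which encodes a scaffold of the aminoacyl-tRNA synthetase complex, had a change of 0.18 (adjusted p = 0.419). All 5 eEF1 transcript clusters had a positive change, with a median of 0.18.

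Eef2, the translocase, had signals of 10.01, 10.13 and 10.19 in RT, against 9.81, 10.00 and 10.18 in RS. Below all RT mice lay 3 RS mice, the other 3 overlapped with RT, and the change was 0.11 ± 0.08 (SE; adjusted p = 0.351; exact permutation p = 0.0996). Eef2k, the kinase that inhibits eEF2, had signals of 6.84, 7.09 and 7.17 in RT, against 6.38, 6.85 and 7.06 in RS. Above all RS mice lay 3 RT mice, and the change of 0.28 ± 0.12 (SE) did not pass (adjusted p = 0.114; exact permutation p = 0.0563). Its other transcript cluster gave 0.29 (adjusted p = 0.159).

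The methyltransferases that modify elongation factors moved both ways. Eef2kmt, which methylates eEF2, was called higher, with signals of 5.46, 5.55 and 5.80 in RT, against 5.20, 5.44 and 5.49 in RS. Of the RT mice, 5 lay above all RS mice, and the change was 0.21 ± 0.09 (SE; adjusted p = 0.0998; exact permutation p = 0.00866), just inside the threshold. Eef1akmt3, one of several lysine methyltransferases of eEF1A, was called lower, with signals of 2.96, 3.47 and 3.63 in RT, against 3.57, 3.75 and 4.08 in RS. Below all RS mice lay 5 RT mice, and the change was −0.41 ± 0.12 (SE; adjusted p = 0.0343; exact permutation p = 0.0108). Its signal was the dimmest of the 69. Eef1akmt1, Eef1akmt2 and Eef1aknmt had changes of 0.16 to 0.19 and did not pass. In Eef1aknmt (adjusted p = 0.121), 4 RT mice lay above all RS mice. It was called higher under several alternatives. Among them were further quantile normalization, cyclic loess, centering each array on its median and the one-way test of the methods.

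Among the subunits of eIF2, Eif2s3x was called higher. It encodes the γ subunit, which binds GTP and the initiator tRNA. Its signal was 7.74, 8.04 and 8.36 in RT, against 7.29, 7.66 and 7.90 in RS. All RT mice but RT-5 lay above all RS mice, and the change was 0.40 ± 0.12 (SE; adjusted p = 0.0343; exact permutation p = 0.013). The Y-linked copy Eif2s3y had signals of 6.92, 6.97 and 7.09 in RT, against 6.89, 7.11 and 7.14 in RS. Its RT values lay within the RS range, with a change of −0.07 ± 0.08 (SE; adjusted p = 0.554; exact permutation p = 0.229). It was called lower after further quantile normalization (−0.20, adjusted p = 0.0848) and with cyclic loess (−0.21, adjusted p = 0.0859).

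The pair Eif2s3x and Eif2s3y was added because its genes had been seen to move unequally, so its p-value is not given. It was still counted in the adjustment over 3 pairs. The within-array difference Eif2s3x minus Eif2s3y was 0.65, 1.06 and 1.43 in RT, against 0.19, 0.56 and 0.96 in RS. The groups overlapped only through RT-5, and the difference between them was 0.47. Without RS-4 and RS-6 it was 0.36. The β subunit gene Eif2s2 had 2 transcript clusters, with changes of 0.12 and 0.22, and neither passed.

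Kinases of eIF2 shut down initiation when they phosphorylate its α subunit. Eif2ak1, the kinase that senses heme, was called higher, with signals of 6.93, 7.14 and 7.32 in RT, against 6.49, 6.88 and 7.10 in RS. In 5 RT mice the signal was above that of all RS mice, and the change was 0.32 ± 0.11 (SE; adjusted p = 0.0495; exact permutation p = 0.0173). Without RS-4 and RS-6 it was 0.20 and did not pass. Eif2ak3, which senses misfolded protein in the endoplasmic reticulum, and Eif2ak4, which senses uncharged tRNA, had changes of 0.11 (adjusted p = 0.292) and −0.04 (adjusted p = 0.852).

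eIF2B reloads eIF2 with GTP and is the complex that phosphorylated eIF2 blocks. None of its 5 subunits passed (adjusted p of 0.231 or more), and none had an unadjusted p under 0.05. Eif2b5, the catalytic subunit, had signals of 6.60, 6.65 and 6.88 in RT, against 6.50, 6.63 and 6.92 in RS. The RT values lay within the RS range, and the change was 0.01 ± 0.09 (SE; adjusted p = 0.975; exact permutation p = 0.968). Eif2a and Eif2d, which can deliver initiator tRNA without eIF2, had changes of 0.07 and −0.0017.

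The factors that select the start codon and join the subunits also had 0 of 6 called, with changes of −0.10 in Eif1b to 0.21 in Eif1ad. Eif5, which triggers GTP hydrolysis on eIF2, and Eif5b, which joins the large subunit, had changes of 0.03 (adjusted p = 0.887) and 0.11 (adjusted p = 0.362). By unadjusted p, 1 of the 6 was under 0.05.

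All 12 transcript clusters of the eIF3 scaffold had a positive change, of 0.08 to 0.36, and 2 were called higher. This is 16.7%, against 11.9% of all transcript clusters and 20.6% of the brighter ones. Eif3d, the subunit that can bind the cap itself, had signals of 6.82, 6.95 and 7.02 in RT, against 6.25, 6.57 and 6.90 in RS. In Eif3d, 4 RT mice lay above all RS mice, and the change was 0.36 ± 0.10 (SE; adjusted p = 0.0224; exact permutation p = 0.00649). The highest RS mouse in Eif3d was RS-1. Eif3c, a core subunit, had signals of 8.31, 8.39 and 8.54 in RT, against 7.79, 8.23 and 8.34 in RS. The groups overlapped only narrowly, and the change was 0.26 ± 0.10 (SE; adjusted p = 0.0805; exact permutation p = 0.0108). Eif3a, the largest subunit, had signals of 8.63, 8.68 and 8.77 in RT, against 8.47, 8.58 and 8.77 in RS, which overlapped, with a change of 0.08 ± 0.07 (SE; adjusted p = 0.488; exact permutation p = 0.173). When the arrays were normalized further by cyclic loess, the change of Eif3a was −0.06 and that of Eif3d 0.23.

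**Figure D3:**
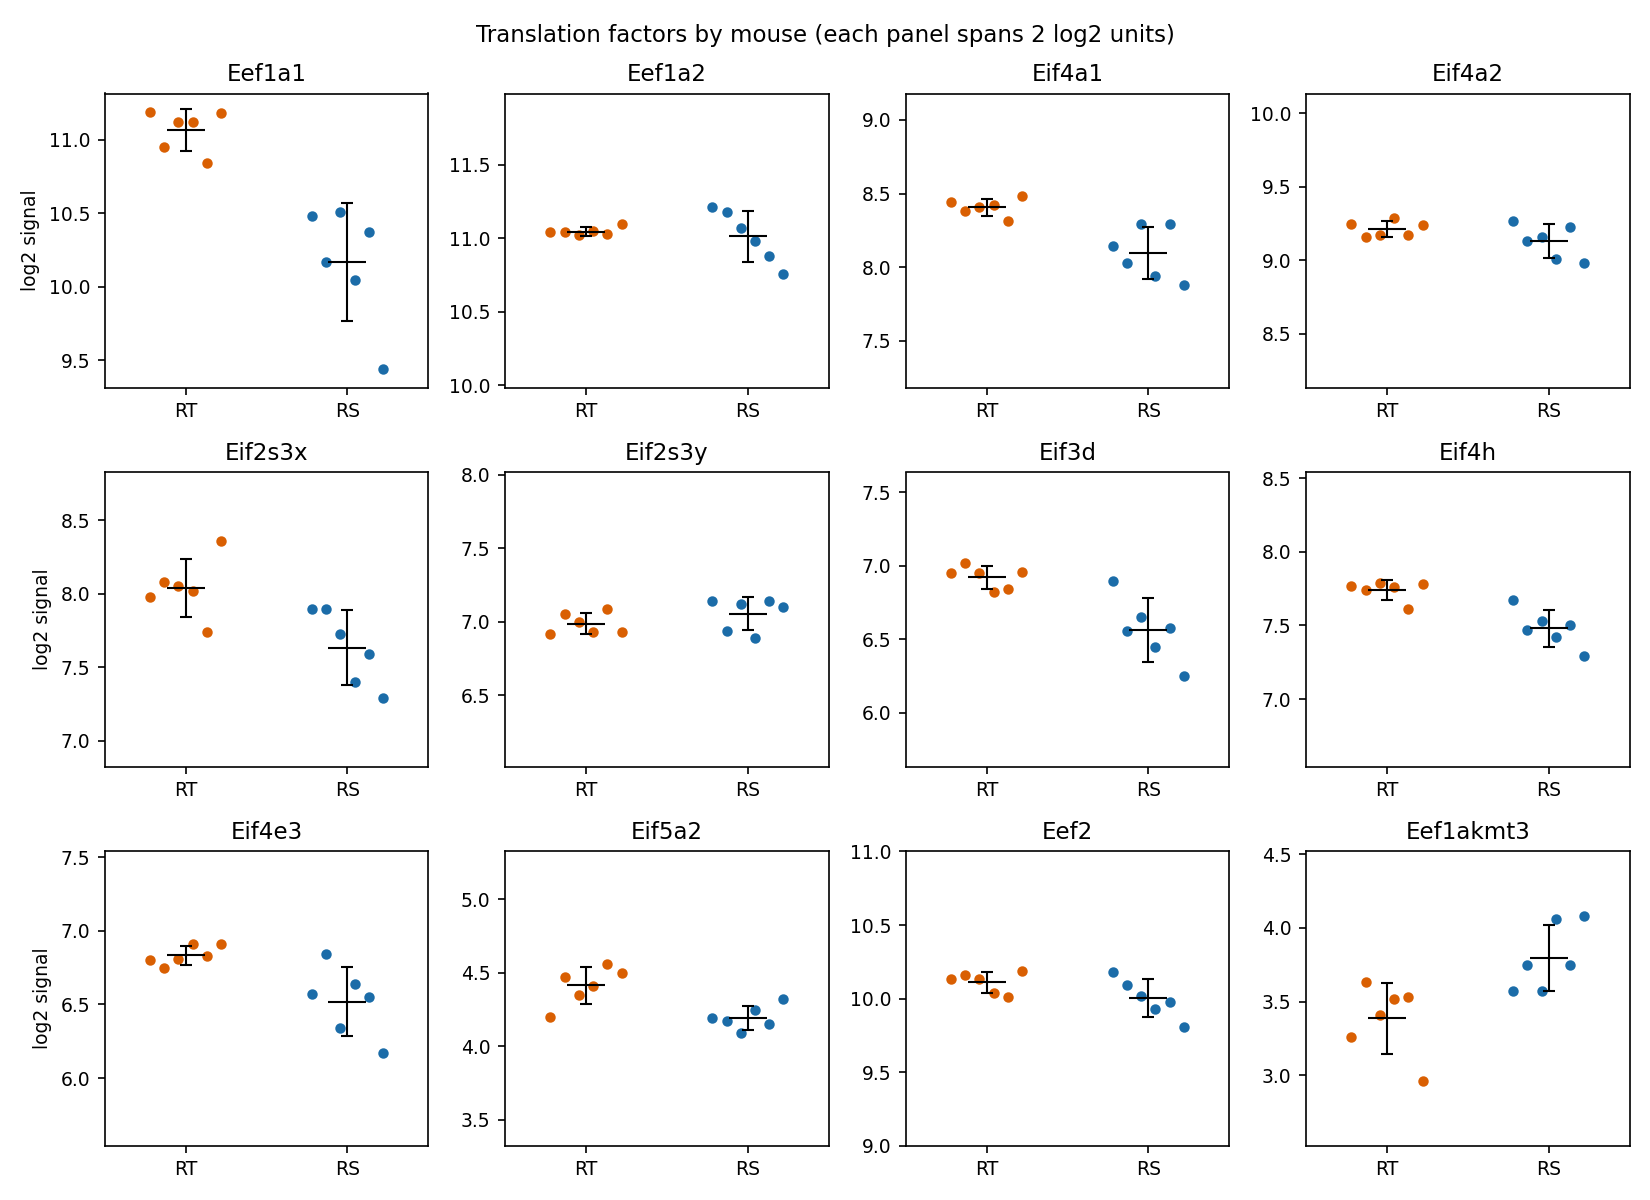
Log2 signal per mouse (points; orange RT on the left, blue RS on the right) of 12 factors, each by its brightest transcript cluster, with the group mean and SD (bars, 6 mice per group). Each panel spans the same range of log2 units; Eef1a1 and Eif4a1 show no overlap, and Eef1akmt3 is lower in RT.

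The eIF4 group held 20 transcript clusters, of which 3 were called higher and 3 lower. That is 15% each way, against 11.9% higher and 13% lower of all, and 20.6% and 10.7% of the brighter ones. Eif4a1, the helicase that unwinds the mRNA, had 3 transcript clusters. The brightest had signals of 8.31, 8.42 and 8.48 in RT, against 7.88, 8.09 and 8.29 in RS. All 6 RT mice lay above all RS mice, and the change was 0.31 ± 0.09 (SE; adjusted p = 0.0248; exact permutation p = 0.00216). The other transcript clusters of Eif4a1 had changes of 0.20 (adjusted p = 0.151) and 0.16 (adjusted p = 0.243), the same direction without passing.

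Eef1a1 and this transcript cluster of Eif4a1 were the 2 of 69 in which RT lay wholly above RS, and in 0 of 69 did RT lie wholly below, against 2.69% and 3.1% of all transcript clusters. Eif4a2, the paralog of Eif4a1 that is abundant in muscle, had a change of 0.08 (adjusted p = 0.46). Within arrays, Eif4a2 minus Eif4a1 was 0.76, 0.80 and 0.87 in RT, against 0.87, 1.09 and 1.13 in RS. The groups touched at 1 value, and the difference between them was −0.23 (exact permutation p = 0.00433; adjusted over 3 pairs, 0.00649). The pair rests on the brightest of the 3 Eif4a1 transcript clusters: in its place, the second brightest gave −0.12 (exact permutation p = 0.0671) and the dimmest −0.077 (exact permutation p = 0.19), neither of which passed. These replacements were chosen after the data had been seen. Under the other 16 alternatives the pair passed.

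Eif4h, a cofactor of the helicase, was called higher, with signals of 7.61, 7.77 and 7.79 in RT, against 7.29, 7.49 and 7.67 in RS. Of the RT mice, 5 lay above all RS mice, and the change was 0.26 ± 0.08 (SE; adjusted p = 0.0336; exact permutation p = 0.00433). Eif4b, the related cofactor, had a change of 0.08 (adjusted p = 0.476). Eif4g2 and Eif4g3, of the scaffold family, had changes of 0.17 (adjusted p = 0.199) and 0.14 (adjusted p = 0.227).

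The cap-binding proteins differed from each other. Eif4e3, an atypical member of the eIF4E family, was called higher, with signals of 6.75, 6.82 and 6.91 in RT, against 6.17, 6.56 and 6.84 in RS. RS-2 was high, so that 2 RT mice lay above all RS mice, and the change was 0.32 ± 0.10 (SE; adjusted p = 0.0418; exact permutation p = 0.0108). Eif4e2, which competes for the cap and represses translation, had a change of 0.13 and did not pass (adjusted p = 0.214).

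The 3 transcript clusters of Eif4e, the main cap-binding protein, disagreed. The brightest had signals of 7.78, 7.88 and 7.93 in RT, against 7.46, 7.84 and 8.17 in RS, with the RT values inside the RS range and a change of 0.05 ± 0.10 (SE; adjusted p = 0.753; exact permutation p = 0.656). Another, annotated by a single cDNA record, was called lower, with signals of 5.29, 5.48 and 5.65 in RT, against 5.34, 5.97 and 6.35 in RS. The groups overlapped, and its change was −0.46 ± 0.14 (SE; adjusted p = 0.0378; exact permutation p = 0.026). The third had a change of −0.03 (adjusted p = 0.855), so no direction is given for Eif4e as a gene.

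Eif4e1b, a form known from the germ line, had 2 transcript clusters with low signals, and both were called lower. The one with the larger change had signals of 3.90, 4.69 and 4.77 in RT, against 4.64, 4.91 and 5.24 in RS. The groups overlapped, and the change was −0.39 ± 0.14 (SE; adjusted p = 0.0651; exact permutation p = 0.0152). The other had a change of −0.26 ± 0.10 (SE; adjusted p = 0.0839; exact permutation p = 0.0281). Neither passed when RS-4 and RS-6 were left out.

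Eif4ebp2, which holds eIF4E back until mTORC1 phosphorylates it, had signals of 7.75, 7.93 and 7.98 in RT, against 7.35, 7.74 and 7.98 in RS. The groups overlapped, and the change was 0.18 ± 0.10 (SE; adjusted p = 0.236; exact permutation p = 0.13). Eif4enif1, which carries eIF4E into the nucleus, had changes of 0.12 and 0.09 in its 2 transcript clusters, and neither passed.

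Eif5a2, the less common isoform of eIF5A, which helps ribosomes through difficult peptide bonds, was called higher. Its signal was low, at 4.20, 4.44 and 4.56 in RT, against 4.09, 4.18 and 4.32 in RS. All RT mice but RT-1 lay above all RS mice, and the change was 0.22 ± 0.08 (SE; adjusted p = 0.0682; exact permutation p = 0.00866). The main isoform, Eif5a, had signals of 8.35, 8.43 and 8.84 in RT, against 7.96, 8.48 and 8.86 in RS, in its brightest transcript cluster. The RT values lay within the RS range, with a change of 0.07 ± 0.14 (SE; adjusted p = 0.755; exact permutation p = 0.695), and its other transcript cluster had a change of −0.12 (adjusted p = 0.442). Eif6, which keeps the large subunit from joining too early, had signals of 6.05, 6.29 and 6.44 in RT, against 5.91, 6.08 and 6.45 in RS, which overlapped, with a change of 0.15 ± 0.10 (SE; adjusted p = 0.309; exact permutation p = 0.167).

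**Figure D4:**
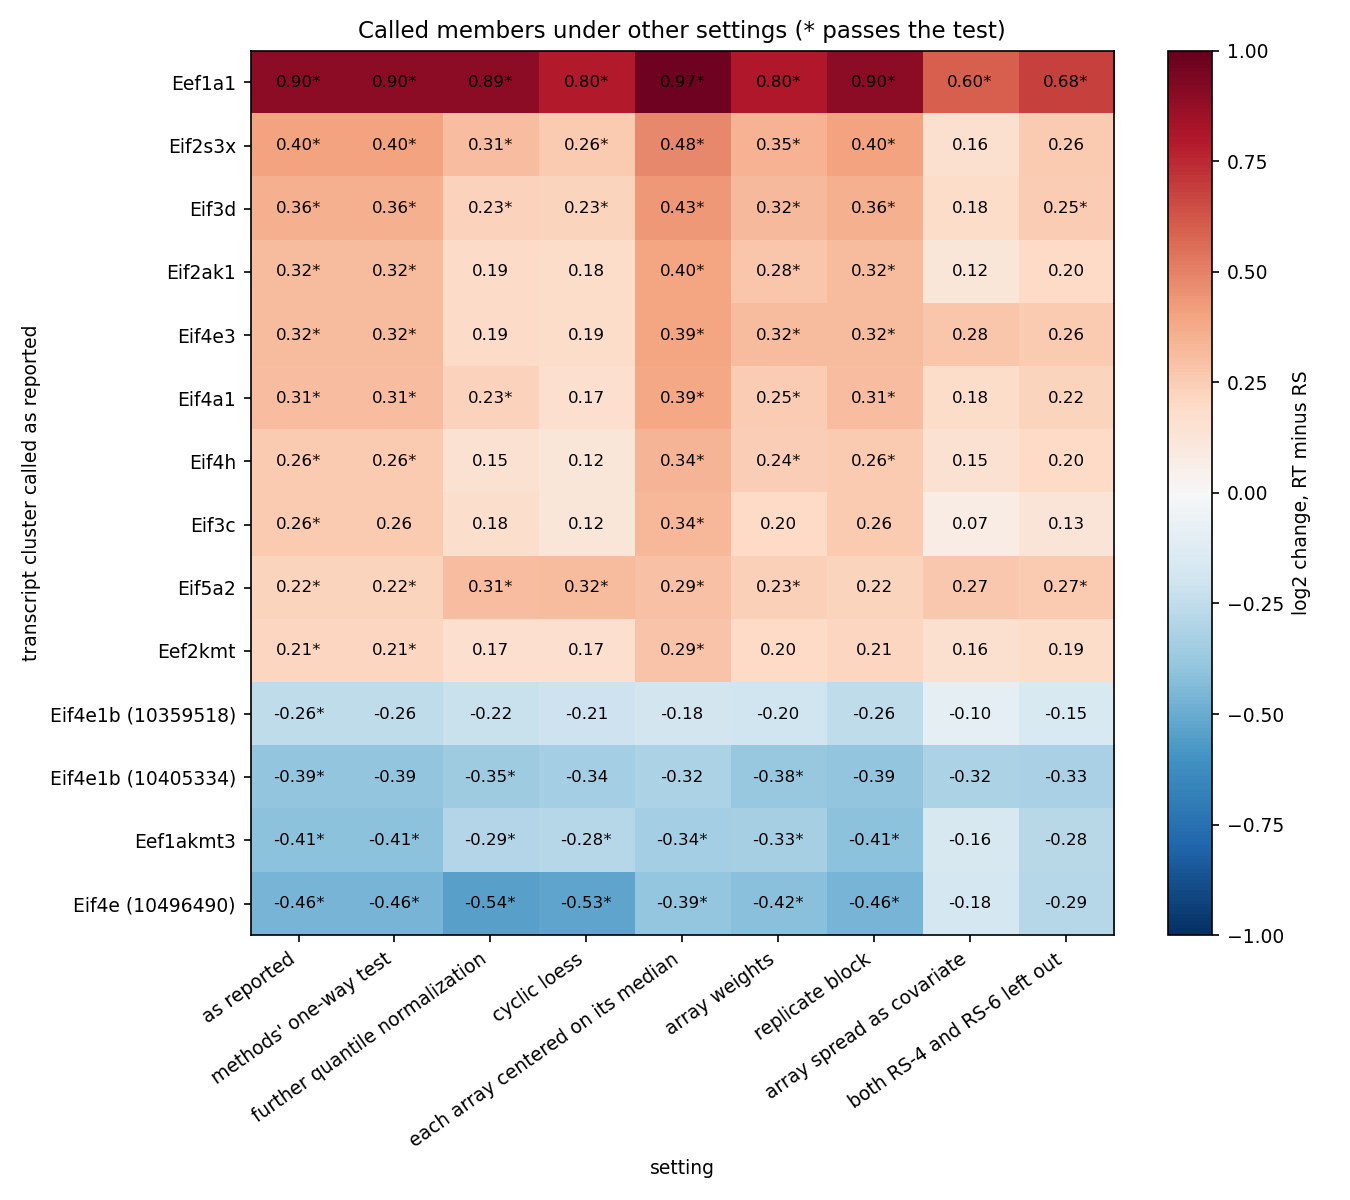
Log2 change (RT minus RS; color and printed value) of the 14 called transcript clusters as reported (left column) and under 8 other settings, where an asterisk marks a change that passed the test. Eef1a1 alone passed in every column, and it was the only one of the 14 that passed once array spread entered as a covariate.

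The calls other than that of Eef1a1 were lost when the spread of the arrays entered the fit as a covariate. In that fit, 1 factor was called higher, Eef1a1, and 2 lower, Eif1b and the dimmer transcript cluster of Eif5a, against 2.53% and 3.07% of all transcript clusters. The mean over all 69 was 6.92 to 7.07 in RT and 6.66 to 7.05 in RS, where RS-1 was highest and RS-6 lowest. With each array centered on its median, 23 were called higher and 2 lower, against 20.3% and 8.34% of all, and with cyclic loess 5 and 5, against 9.57% and 9.73%. After further quantile normalization 6 were called higher and 6 lower, against 9.62% and 9.53% of all. The 3 called higher without RS-4 and RS-6 were Eef1a1, Eif3d and Eif5a2.

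The genes that work beside these factors were read from 6 lists in the same fit. Of the other initiation helpers, 4 of 11 were called higher and 0 lower (median change 0.17, against 0.01 over all genes). They were Pabpc1, the poly(A)-binding protein (0.45, adjusted p = 0.0167), Dhx29, a helicase of the small subunit (0.38, adjusted p = 0.0148), Bzw1 and Bzw2. Of the genes for termination, recycling and rescue, 2 of 6 were called higher and 0 lower (median 0.09), namely Gspt1, the GTPase of termination (0.38, adjusted p = 0.029), and Abce1, which splits ribosomes after termination (0.32, adjusted p = 0.0525).

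Of 14 genes in the mTORC1 and kinase inputs to eIF4F and eEF2K, 1 was called higher and 0 lower (median 0.06). It was Tsc2, an inhibitor of mTORC1, with a change of 0.25 (adjusted p = 0.0272). Eif4ebp1, which like Eif4ebp2 restrains eIF4E, had a change of 0.03 (adjusted p = 0.83). Of 9 genes that control eIF2 phosphorylation or respond to it, 2 were called higher and 0 lower (median −0.03). They were Dnajc3, an inhibitor of eIF2 kinases (0.40, adjusted p = 0.00939), and Ppp1r15b, a phosphatase subunit (0.31, adjusted p = 0.0199). Among those that did not pass, Nck1 had a change of 0.16. Impact, Ddit3, Trib3, Atf4 and Ppp1r15a had changes of −0.27 to −0.025. Eif2ak2, the kinase that senses double-stranded RNA, had a change of −0.01 (adjusted p = 0.969).

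Of 6 genes for the modification of eIF5A and eEF2 and for selenocysteine delivery, 1 was called higher and 0 lower (median 0.0033). It was Dph3, needed for the diphthamide on eEF2 (0.46, adjusted p = 0.0173). Of the 10 mitochondrial translation factors, 0 were called in the limma fit (median 0.07), and 0 had an unadjusted p under 0.05. For comparison, 13.9% of all genes were called higher and 10.7% lower.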

How the data were processed

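Total RNA (250 ng) of gastrocnemius muscle was hybridized to Affymetrix Mouse Gene 1.0 ST arrays. The deposited values are log2 signals per transcript cluster, which the authors normalized by RMA; the methods name RMA in one place and SST-RMA in another, and which of them made the deposited table is not given in the sources used here, nor is a genome build. The deposited arrays still differed in median and spread, and a log2 signal cannot be set against that of another probe set. The number of arrays, 6 per group, limits the precision. The table held 0 columns of other samples. Groups and replicate numbers were read from the sample labels.

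Gene symbols came from the platform annotation of the array, by transcript cluster: 21789 carried 1 symbol, 1621 several and 5534 none, and only those with 1 symbol were named. RT was compared with RS with limma 3.58.1 (lmFit, then eBayes) under R 4.3.3 over all 28944 transcript clusters, two-sided, with no covariate. Every adjusted p of a single gene is from this fit, except where an alternative is named beside it. The thresholds are those of the methods. Single members and within-array differences of paralogs were also compared by an exact two-sided permutation test over 924 splits of 6 against 6. The tests were checked on simulated data. Members, lists, roles and tests were chosen with earlier results of these data known. Described mouse by mouse were, by a rule on roles, up to 2 called members per direction in each role and a list of central factors whatever their values. Eif4h was described in addition, after its values were seen. Promoter windows were read from RefSeq, GRCm38.p6, with Python 3.11.15, and matched by gene identifier. Samples with the same replicate number were not paired. The planned pair Eif4g3 minus Eif4g1 was not run. Eif4g1 and Eif2s1 had no transcript cluster with 1 symbol in the annotation used and were not analysed here. The adjustment over 3 pairs took in Eif2s3x minus Eif2s3y, which was added after the data had been seen. Alternatives changed the normalization, the fit, the filter, the threshold or the mice included.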

Additional observations from a re-analysis of the deposited data

How the results depend on the processing

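Members called higher in RT numbered 10 as reported, 6 after further quantile normalization, 5 with cyclic loess, 23 with arrays centered on their medians, 1 with the array spread as a covariate and 3 without RS-4 and RS-6. Members called lower numbered 4 as reported and 0 without RS-4 and RS-6. They numbered 2 with centered arrays, the methods' one-way test, the spread covariate, an adjusted p under 0.05 or each gene's brightest transcript cluster. Over all 28944 transcript clusters, the one-way test called 3039 lower and the stricter threshold 2307, and of all genes 10.7% were called lower. The median change, 0.13 as reported, was 0.014 with cyclic loess and 0.0092 with the spread covariate. With the replicate number as a block, 7 were called higher and 2 lower, against 2873 and 3174 of all 28944 transcript clusters. Same-numbered arrays correlated at −0.24 to 0.11 after group means were removed. The value was above 0.1 in 1 of 6 pairs, so the block is no pairing by design. Leaving out 1 mouse gave 6 to 21 called higher, 2 to 4 called lower and a median of 0.09 to 0.16. The extremes were 21 without RS-1 and 6 without RT-2 or RT-6, and 2 were called lower without RT-4, RT-6 or RS-4. Calls over all 28944 transcript clusters moved too. They were 3445 higher and 3764 lower as reported, 4573 and 4806 without RS-1, 2554 and 2797 without RT-2, and 2360 and 2564 without RT-6. Without RT-4, 3121 were called lower, and without RS-4, 2623. The difference between groups without 1 mouse was −0.93 to −0.77 for Eef1a2 minus Eef1a1, −0.26 to −0.21 for Eif4a2 minus Eif4a1 and 0.39 to 0.55 for Eif2s3x minus Eif2s3y, which was 0.36 without RS-4 and RS-6. Eif4a2 minus Eif4a1 was −0.12 (exact p = 0.0671) with the second brightest and −0.077 (exact p = 0.19) with the dimmest Eif4a1 transcript cluster, neither past the threshold. Only the called members and the list of central factors were followed singly under each setting. Among these, the sign turned in 7 factors that had not passed. Turns of sign in the other members were not counted. With cyclic loess the changes were −0.060 in Eef1a2, −0.0039 in Eef2, −0.13 in Eif2b5, −0.058 in Eif3a, −0.091 in the brightest transcript cluster of Eif4e and −0.070 in Eif5a. With the spread covariate they were −0.068 in Eef1a2, −0.0019 in Eef2, −0.053 in Eif2b5, −0.13 in Eif4e and −0.22 in the brightest transcript cluster of Eif5a, and without RS-4 and RS-6 they were −0.038 in Eef1a2, −0.033 in Eif2b5, −0.079 in Eif4e and −0.11 in Eif5a. Further quantile normalization gave −0.12 in Eif2b5, −0.055 in Eif4e and −0.011 in Eif5a, and centered arrays gave 0.0067 in Eif2s3y, which was called lower with quantile normalization (−0.20) and cyclic loess (−0.21). Without 1 mouse, Eef1a2 ranged from −0.017 to 0.073, Eif2b5 from −0.034 to 0.053, Eif4e from −0.020 to 0.12 and Eif5a from −0.028 to 0.15. The causes were not tested. Of the other values of the factors followed singly, outside the left-out mice, 183 kept their direction and side of the threshold. In 56 the call was lost and in 6 one was gained. Small changes in dim transcript clusters, such as Eef1akmt3, Eif5a2 and Eif4e1b, are limited by background.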
